A study of Mus musculus with 9 samples.

Results

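The A-type potassium current is carried in hippocampal pyramidal cells mainly by Kv4 channels, and the genes described here are those that build the Kv4 channel complex. They were taken by name and number 8 of the 31052 gene columns of the deposited table: the pore subunit genes Kcnd2 and Kcnd3, the KChIP genes Kcnip1, Kcnip2, Kcnip3 and Kcnip4, and the DPP genes Dpp6 and Dpp10. Nuclear RNA was sequenced from hippocampal pyramidal cells of mice labelled WT, whose age and sex the labels do not give. The cells had been imaged in vivo during spatial navigation, sorted by activity into place cells (active at certain spots) and silent cells, and phototagged, and their nuclei were then collected. The 5 place and 4 silent libraries all came from 1 kind of kit, SMART-Seq mRNA LP, built for low amounts of polyadenylated RNA, and no genotype or agent other than the tagging is named for either group. Each title carries a mouse designation with its own number. The labels do not say whether this makes each library a separate animal, so p-values measure only the spread between these libraries. Levels are given in RPM, which is reads per 1000000 reads of a library after scaling between libraries.

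Kv4 channels open below the spike threshold and inactivate quickly, and in CA1 dendrites they limit how far action potentials spread back from the soma. Each channel is built from pore subunits together with KChIPs, cytosolic calcium-binding proteins that raise its surface expression and slow its inactivation, and DPPs, membrane proteins related to dipeptidyl peptidases but without peptidase activity, which speed its gating. Which KChIP and which DPP joins the pore sets how fast the current decays and recovers.

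Kcnd2, Kcnip2 and Dpp6 had reads in all 9 libraries at 78.1 RPM or more, and so made up a pore subunit, a KChIP and a DPP present throughout. Kcnip3 and Kcnip4 also had reads in all libraries, at 17.3 RPM or more, Kcnd3 varied widely, and Kcnip1 and Dpp10 exceeded 1 RPM in only 2 libraries each. For none of the 6 members that could be tested was a difference between place and silent libraries larger than the spread between libraries.

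Kcnd2 encodes Kv4.2, the main Kv4 pore subunit of CA1 pyramidal cell dendrites. It stood at 305, 142, 296, 268 and 222 RPM in place replicates 1 to 5 and at 410, 306, 165 and 184 RPM in silent replicates 1 to 4. The lowest library was a place library and the highest a silent one, and the groups overlapped, with means of 247 ± 66.9 (SD, n = 5) and 266 ± 114 RPM (SD, n = 4). Kcnd3 encodes Kv4.3, a pore subunit known in the hippocampus also from interneurons. It stood at 24.4, 57.2, 0.322, 29.1 and 8.92 RPM in place replicates 1 to 5 and at 3.11, 31.5, 30.8 and 0.501 RPM in silent replicates 1 to 4. Each group thus held a library below 1 RPM and others above 24 RPM, and all 4 silent values lay within the place range. In the GRCm38 annotation Kcnd3 shares 165 bases with Kcnd3os on the opposite strand, and since the strand setting of the counting is not given in the sources used here, its count is uncertain.

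Kcnip2, known as a main KChIP of pyramidal cells, was at 153, 268, 185, 299 and 269 RPM in place replicates 1 to 5. In silent replicates 1 to 4 it was at 344, 319, 242 and 237 RPM. The 2 highest libraries were silent and the 2 lowest place, the other 3 place libraries lay within the silent range, and the means were 235 ± 62.1 (SD, n = 5) and 286 ± 53.9 RPM (SD, n = 4). Kcnip4, whose best-known splice form suppresses fast inactivation of Kv4 channels, was at 120, 57.1, 54.1, 116 and 83.2 RPM in place and at 21.4, 76.0, 91.1 and 49.6 RPM in silent libraries. The 2 highest libraries were place replicates 1 and 4, and the lowest was silent replicate 1. Kcnip4 overlaps 5730480H06Rik by 168 bases and Gm20700 by 99 bases, both on the opposite strand, so its count is uncertain too. Kcnip3 encodes KChIP3, also called DREAM or calsenilin, which besides Kv4 channels binds DNA as a calcium-sensitive repressor. It was at 51.6, 64.6, 36.7, 55.8 and 28.1 RPM in place and at 23.5, 67.2, 17.3 and 57.6 RPM in silent libraries. The silent libraries held both its highest and its lowest values.

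Dpp6, which in mouse hippocampus helps carry Kv4 channels into distal dendrites, was at 119, 111, 93.6, 144 and 189 RPM in place replicates 1 to 5. In silent replicates 1 to 4 it was at 108, 78.1, 135 and 83.1 RPM. The 2 highest libraries were place replicates 5 and 4, the 2 lowest were silent, and the groups overlapped, with means of 131 ± 36.9 (SD, n = 5) and 101 ± 26.3 RPM (SD, n = 4).

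**Figure D1:**
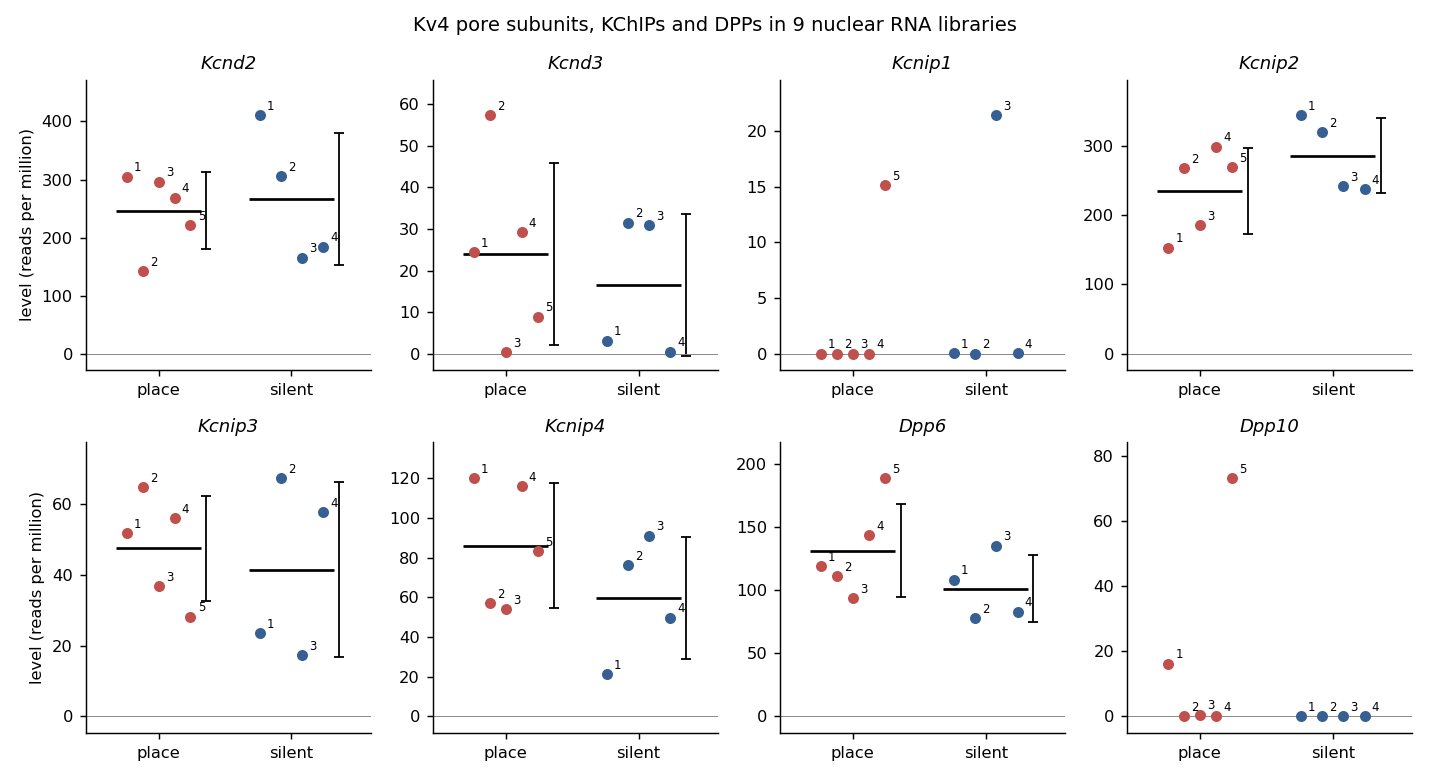
Level of each member in RPM (vertical axes, linear, a scale for each gene) in the 5 place and 4 silent libraries; each point is a library, numbered by replicate, and for the 6 tested genes the line is the group mean and the bar ± 1 SD. Kcnd2, Kcnip2 and Dpp6 are at 78.1 RPM or more in all 9 libraries, while Kcnip1 and Dpp10 exceed 1 RPM in 2 libraries each.

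Kcnip1 and Dpp10 were found in a few libraries. Kcnip1, a KChIP known mainly from interneurons, had 275 reads in place replicate 5, or 15.1 RPM with a 95% Clopper-Pearson interval of 13.4 to 17.0. It had 340 reads in silent replicate 3, or 21.4 RPM (19.2 to 23.8). The other 7 libraries held 0 reads or 1 read. Dpp10, the second DPP, had 1330 reads in place replicate 5, or 73.3 RPM (69.4 to 77.3), and 234 in place replicate 1, or 16.2 RPM (14.2 to 18.4). Place replicate 3 held 11 reads, and the other 6 libraries, all 4 silent ones among them, 0 or 1. A count of 0 allows up to 3 reads, which is 0.137 to 0.222 RPM depending on the library, and intervals and limits cover counting error only. Both genes missed the filter for testing.

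**Figure D2:**
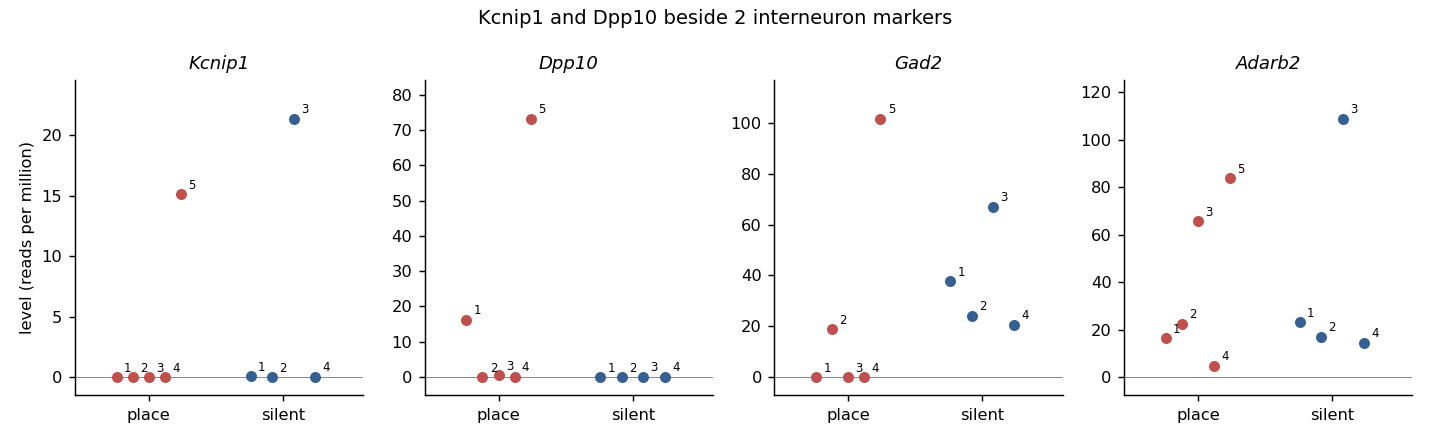
Level in RPM (vertical axes, linear, a scale for each gene) of Kcnip1, Dpp10 and the interneuron markers Gad2 and Adarb2; each point is a library, numbered by replicate within its group. Kcnip1, Gad2 and Adarb2 are each highest in place replicate 5 and silent replicate 3, and Dpp10 in place replicate 5; the 2 markers were chosen after their values were seen, and others of the 12 do not share this layout.

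Markers of interneurons were present in every library. Gad2, an enzyme of GABA synthesis, and Adarb2, a marker of interneurons from the caudal ganglionic eminence, were picked out of the 12 interneuron markers after their values were seen. Gad2 was at 102 RPM in place replicate 5 and 67.1 RPM in silent replicate 3, the 2 libraries with Kcnip1, and at most 37.7 RPM in the others. Adarb2 was at 83.7 and 109 RPM in these 2 libraries and at most 65.6 RPM in the others. Other markers had another layout. Gad1 was at 41.2 and 43.6 RPM in these 2 libraries, against 186 RPM in place replicate 3 and 144 RPM in place replicate 2, Sst had no reads in either, and Reln was at 0.551 RPM and 0, against 149 RPM in silent replicate 2. The summed level of all 12 markers did not single these libraries out either. It was 406 RPM in place replicate 5 and 375 RPM in silent replicate 3, against 492 RPM in silent replicate 2 and 486 RPM in place replicate 3, which had no Kcnip1 reads. The sum ran from 108 to 486 RPM in place and from 113 to 492 RPM in silent libraries, and Vip was at 0 in all 9. The part of interneuron RNA in the Kcnip1 and Dpp10 values was not tested.

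The starts of 3 members are shown for the most abundant pore subunit, the most abundant KChIP and the DPP found in few libraries, a choice made after their values were seen. The windows are RefSeq sequence of build GRCm38.p6, 250 bases before and 50 after the annotated start, 5′ to 3′ on the gene's strand: Kcnd2 at chr6:21215096-21215395 (plus strand), Kcnip2 at chr19:45816014-45816313 (minus strand) and Dpp10 at chr1:124045510-124045809 (minus strand). Capitals mark the GC box, GGGCGG or its reverse complement CCGCCC.
Kcnd2: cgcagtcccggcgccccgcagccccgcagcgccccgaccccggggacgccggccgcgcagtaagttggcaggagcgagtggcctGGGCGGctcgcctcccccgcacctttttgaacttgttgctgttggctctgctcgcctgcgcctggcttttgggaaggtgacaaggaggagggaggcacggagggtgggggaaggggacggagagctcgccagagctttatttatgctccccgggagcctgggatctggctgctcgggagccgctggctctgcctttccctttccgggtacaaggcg
Kcnip2: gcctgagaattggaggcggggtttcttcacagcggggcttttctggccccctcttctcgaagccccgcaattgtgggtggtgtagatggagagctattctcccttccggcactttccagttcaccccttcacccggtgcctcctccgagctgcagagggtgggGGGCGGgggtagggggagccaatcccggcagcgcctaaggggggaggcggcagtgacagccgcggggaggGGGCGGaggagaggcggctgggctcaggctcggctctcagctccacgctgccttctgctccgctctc
Dpp10: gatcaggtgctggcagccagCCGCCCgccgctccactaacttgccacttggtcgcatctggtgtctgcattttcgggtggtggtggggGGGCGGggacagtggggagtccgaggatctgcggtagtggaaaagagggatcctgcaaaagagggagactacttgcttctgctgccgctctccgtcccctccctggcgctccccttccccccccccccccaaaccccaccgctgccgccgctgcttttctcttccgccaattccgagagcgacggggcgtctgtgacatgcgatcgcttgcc
All 3 windows were rich in G and C, at 68.7% for Kcnd2, 67.0% for Kcnip2 and 65.0% for Dpp10, against a median of 52.7% over the 32851 windows in the table. They held 26, 18 and 21 CpG dinucleotides, against a median of 7. The GC box occurred once in the Kcnd2 window and 2 times in each of the other 2. All 8 members matched, with 15 windows in all, and 8 of the 15 held a GC box, against 35.7% of all windows. The share of G and C varied among the 15. It ran from 45.3% in a Kcnip1 window, with 4 CpG, to 73.3% in a Kcnip3 window, with 28 CpG. The cAMP response element TGACGTCA (its own reverse complement) was in 0 of the 15 windows and 1.79% of all, and the TATA box TATAAA, or TTTATA on the other strand, in 1 of the 15, at Dpp6, and 13.6% of all.

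Levels of different genes were compared per kilobase of exon, using the union of a gene's exons in a GENCODE annotation of build GRCm38. By median over the 9 libraries, Kcnip2 was highest at 77.1 RPM per kb, followed by Kcnd2 at 52.1, Kcnip4 at 20.96, Kcnip3 at 14.5, Dpp6 at 8.99 and Kcnd3 at 2.55 RPM per kb. Dpp10 had a median of 0.003 RPM per kb and Kcnip1 of 0. Neighbours in this order overlapped in range except Dpp6 and Kcnd3, with Dpp6 the higher in 9 of 9 libraries. Kcnip2 was above Kcnd2 in 7 of 9 libraries and Kcnd2 above Kcnip4 in 9 of 9, while Kcnip4 was above Kcnip3 in 6 of 9 and Kcnip3 above Dpp6 in 6 of 9. Dividing by the longest coding transcript instead moved Dpp6 (23.5 RPM per kb) above Kcnip3 (18.9) and put Kcnip2 above Kcnd2 in 9 of 9. Whether reads in introns were counted is not given in the sources used here, and nuclear RNA holds unspliced transcripts, so these orders between genes hold for exon lengths only.

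By median, 1 gene of each family supplied most of its RNA per length. Kcnd2 made up a median of 95.9% of the summed Kcnd2 and Kcnd3 level per kb, from 82.2% in place replicate 2 to 99.9% in place replicate 3. With Kcnd1, the remaining Kv4 pore subunit gene (Kv4.1), added to the sum, its median share was 86.0%, lowest in silent replicate 3 (72.5%) and highest in silent replicate 1 (99.5%). Kcnd1 then supplied a median of 11.7% (0.0874 to 23.3%) and Kcnd3 3.71% (0.0502 to 15.7%). Kcnd1, at a median of 5.94 RPM per kb, was above Kcnd3 in 7 of 9 libraries. Dpp6 made up a median of 99.96% of the DPP sum, and the lowest share, 76.7%, was in place replicate 5, the library with the most Dpp10. The KChIP sum was more mixed. Kcnip2 supplied a median of 69.4% of it (48.1 to 88.7%), Kcnip4 19.0% (5.29 to 36.1%) and Kcnip3 13.2% (4.73 to 16.5%), while Kcnip1 reached 3.35% at most. The extremes for Kcnip2 were place replicate 1, with the lowest share, and silent replicate 1, with the highest. Between groups, the Kcnip2 share was 63.9 ± 9.12% (SD, n = 5) over place and 73.9 ± 9.96% (SD, n = 4) over silent libraries, with overlapping ranges. That of Kcnip4 was 22.8 ± 8.22% and 14.9 ± 7.83%, also overlapping. The summed level of the KChIPs was 105 ± 20.98 RPM per kb in place and 111 ± 14.8 in silent libraries, that of Kcnd2 and Kcnd3 50.4 ± 11.5 and 53.4 ± 21.8, and that of the DPPs 11.8 ± 4.82 and 8.20 ± 2.13, with overlapping ranges for each. These shares and sums were described without a test.

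**Figure D3:**
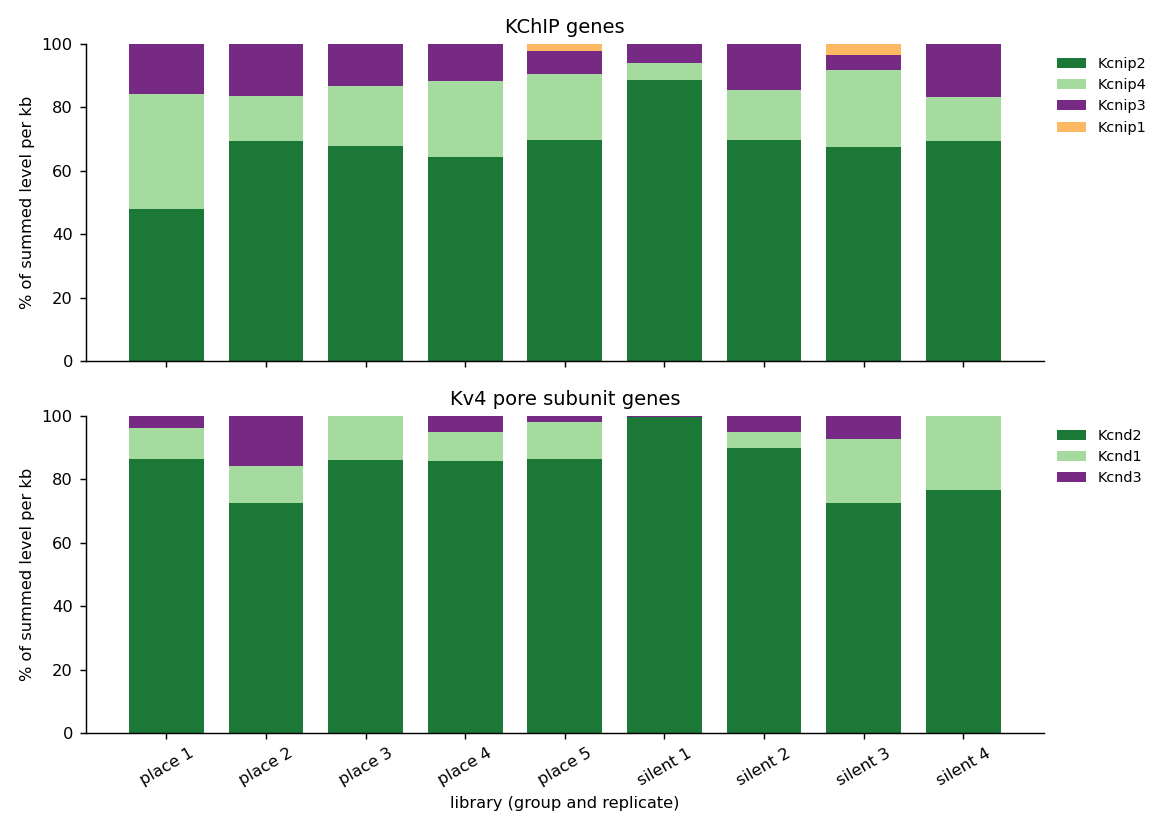
Share of each gene (percent, bars stacked from 0 to 100) in the summed level per kilobase of exon of the KChIP genes (upper) and of the pore subunit genes Kcnd2, Kcnd1 and Kcnd3 (lower), for each place and silent library. Kcnip2 makes up 48.1 to 88.7% of the KChIP sum and Kcnd2 72.5 to 99.5% of the pore subunit sum.

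The ratio of Kcnip2 to Kcnd2 varied widely within the place group. Kcnip2 over Kcnd2, both per kb of exon, was 0.745, 2.80, 0.927, 1.65 and 1.80 in place replicates 1 to 5 and 1.24, 1.55, 2.17 and 1.91 in silent replicates 1 to 4. The 2 ratios under 1 and the highest ratio were all in place libraries. By the longest coding transcript the ratios ran from 1.08 in place replicate 1 to 4.06 in place replicate 2, so that none was under 1.

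Place was then compared with silent across all genes to ask which transcripts differ with the functional class of the cell. The fit was limma with an intensity trend on log2(scaled value + 1), over the 15219 genes that reached a scaled value of 10 in 4 or more libraries, and a fold is on that log2 scale, place minus silent. Of the 8 members, 6 were tested and 0 passed an adjusted p of 0.05 (Benjamini-Hochberg), against 0.0% of all tested genes, with 0.424 as the lowest adjusted value. Without adjustment, 0 of 6 had p under 0.05, against 5.09% of all genes (3.77% higher and 1.33% lower in place), and 0 of 6 had groups without overlap, against 1.88%. Voom on recovered reads also called 0 of 6, against 0.0263% of all genes. The log2 fold was positive in 4 and negative in 2 members, against 58.7% positive over all genes, with a median of 0.36 over the members and 0.19 over all genes. Under quantile normalization, which moved the median of all genes to 0.01, the fold of Kcnd2 turned to 0.03 and that of Kcnd3 to -0.04.

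The intervals of this fit differed in width between members. Kcnd2 had a log2 fold of -0.06 ± 0.33 (SE), with a 95% interval of -0.78 to 0.65 and a limma adjusted p of 0.986. Kcnip2 had -0.31 ± 0.26 (-0.87 to 0.25, limma adjusted p = 0.864), and Dpp6 0.37 ± 0.33 (-0.35 to 1.08, limma adjusted p = 0.865). For these 3 genes the intervals reached no further than 1.08 in either direction. The intervals of Kcnip4 (0.64 ± 0.50, -0.45 to 1.74, limma adjusted p = 0.864) and Kcnip3 (0.36 ± 0.58, -0.90 to 1.61, limma adjusted p = 0.925) were wider. Kcnd3 was least determined, at 0.73 ± 1.76 (-3.11 to 4.57, limma adjusted p = 0.958). Its sign turned without silent replicate 4 (-0.47), and that of Kcnd2 turned without silent replicate 1 (0.18), silent replicate 2 (0.04) or place replicate 2 (0.12). With the mean level of the Y-linked genes as a covariate, the log2 fold of Kcnip2 was -0.91 ± 0.38 (limma adjusted p = 0.569) and that of Kcnip4 1.28 ± 0.84 (limma adjusted p = 0.83). Place replicate 1 was the only place library with a Y-linked level like that of the silent libraries. These folds therefore rest mainly on that library against the silent ones. Without the covariate, the log2 fold of Kcnip4 was 0.22 without silent replicate 1, and that of Kcnip3 0.012 without silent replicate 3.

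**Figure D4:**
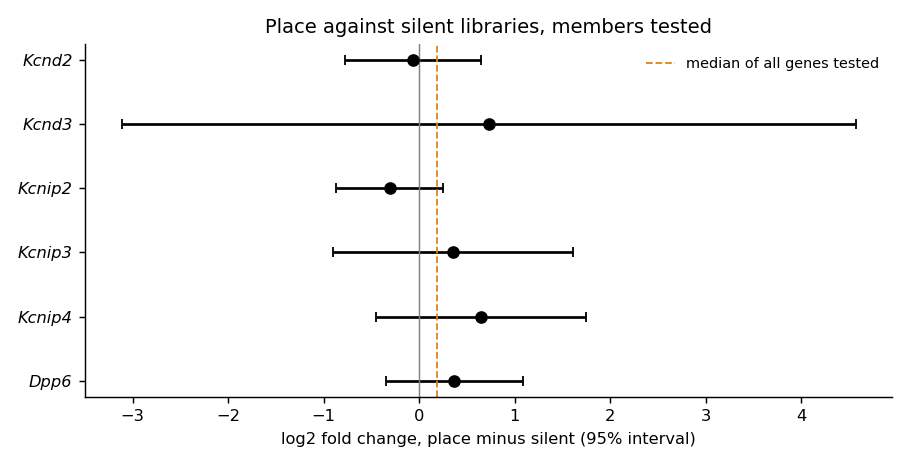
Log2 fold change, place minus silent (horizontal axis), of the 6 tested members, with 95% intervals from the limma fit as bars and the median of all tested genes, 0.19, as the dashed line. All 6 intervals include 0, from the narrow one of Kcnip2 (-0.87 to 0.25) to that of Kcnd3 (-3.11 to 4.57).

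The members also differed in how even they were over the 9 libraries, whatever the group. The SD of the log2 values was 0.37 for Kcnip2, 0.40 for Dpp6, 0.50 for Kcnd2, 0.71 for Kcnip3 and 0.77 for Kcnip4, and 2.74 for Kcnd3, while the median tested gene had 1.73. Of all tested genes, 5.20% had a smaller SD than Kcnip2, 6.89% than Dpp6, 12.4% than Kcnd2, 25.3% than Kcnip3, 28.8% than Kcnip4 and 58.9% than Kcnd3. These 6 members had reads in all 9 libraries, while 41.9% of tested genes lacked reads in some library, so the sets compared are unlike. More abundant genes have smaller counting error, and no test was made of this spread.

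No correlation between members over the 9 libraries passed adjustment, and the groups, of 5 and 4 libraries, were too small for correlations within them. Among the 15 pairs of the 6 members with reads in every library, Pearson's r of log2 values lay between -0.47 and 0.52, and 8 pairs were above 0. Kcnd2 and Kcnip2 had r = 0.07 (exact permutation p = 0.848, adjusted p = 0.937 over 28 pairs) and Spearman's rho = 0.33 (exact permutation p = 0.385, adjusted p = 0.815), and r = 0.18 without the 2 libraries farthest from the Kcnd2 median. Of all 28 pairs, 0 passed after Benjamini-Hochberg adjustment, by r or by rho. The smallest p was that of Kcnip1 and Kcnip3, with r = -0.77 (exact permutation p = 0.0212, adjusted p = 0.593) and rho = -0.73 (exact permutation p = 0.0364, adjusted p = 0.778). Without the 2 libraries that held most Kcnip1, r was -0.61, but that gene is then left with 0 or 1 read in each library. The 3 genes whose log2 values followed Kcnd2 most closely over the 9 libraries, chosen from all tested genes, were Adam10, a membrane protease (r = 0.95), BB557941 (r = 0.92) and Cox6c, a cytochrome c oxidase subunit (r = 0.91). All 3 were highest in silent replicate 1 and, like Kcnd2, lowest or without reads in place replicate 2, and BB557941 had reads in only 5 libraries.

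Among the other genes tied to A-type currents, 6 of 12 listed were tested, 5 with a positive and 1 with a negative log2 fold, and 0 passed the adjusted or unadjusted threshold. Their median log2 fold was 0.65, against 0.19 over all tested genes, of which 58.7% had positive folds and 5.09% an unadjusted p under 0.05. Kcnd1 was at 34.1 ± 9.63 RPM (SD, n = 5) over place and 30.9 ± 26.3 RPM (SD, n = 4) over silent libraries. It ran from 23.5 to 49.3 RPM in place, and from 0.370 RPM in silent replicate 1 to 57.5 RPM in silent replicate 4. Kcna4, the Kv1 pore subunit that inactivates rapidly by itself, was at 40.7 ± 18.7 and 23.3 ± 34.3 RPM and had no reads in silent replicates 1 and 4 (limma adjusted p = 0.864). Kcnab1, a Kv1 beta subunit that confers fast inactivation, was at 233 ± 44.7 and 310 ± 44.3 RPM (log2 fold -0.42 ± 0.22, limma adjusted p = 0.864). Kcnab3, another beta subunit, was at 41.7 ± 13.9 and 24.9 ± 11.7 RPM. Kcne2, Kcne3 and Kcne4, single-pass subunits that can join Kv4 channels in heterologous cells, had no reads in any library.

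Relatives of the auxiliary subunits were measured as well. Of 4 DPP relatives, 2 were tested, both with negative folds, and 0 passed. Dpp8 (49.4 ± 16.3 RPM in place, 54.5 ± 25.2 RPM in silent libraries) and Dpp9 (46.6 ± 27.8 and 75.6 ± 29.4 RPM) are cytosolic peptidases, active enzymes unlike Dpp6 and Dpp10. Of 7 neuronal calcium sensors, the protein family to which KChIPs belong, 6 were tested, 5 with positive and 1 with negative folds and a median of 0.18, and 0 passed. Of all tested genes, 58.7% had positive folds and 0.0% passed, with a median fold of 0.19. Hpca, or hippocalcin, was the most abundant of those named, at 464 ± 183 and 441 ± 175 RPM (log2 fold 0.06 ± 0.35, limma adjusted p = 0.989). Ncs1 was at 72.2 ± 16.3 and 65.4 ± 35.7 RPM and Ncald at 48.5 ± 40.2 and 29.99 ± 17.5 RPM. Rcvrn, recoverin of photoreceptors, was at most 14.4 RPM and had reads in 5 libraries.

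Of 15 partners and regulators of Kv4 channels, all were tested, 7 with positive and 8 with negative folds (8 and 7 under quantile normalization) and a median of -0.05. The share of positive folds over all tested genes was 58.7%. An unadjusted p under 0.05 was met by 1 of the 15, Cacna1h, against 5.09% of all tested genes, and 0 passed after adjustment. Cacna1h encodes a T-type calcium channel, a class that in rat cerebellar neurons forms a complex with Kv4 channels and supplies their KChIP with calcium. It was at 109, 71.0, 103, 56.6 and 49.7 RPM in place and at 0.074, 48.6, 38.9 and 12.5 RPM in silent libraries. The groups did not overlap, which held for 1 of the 15 and 1.88% of all genes, by a margin of 49.7 to 48.6 RPM (log2 fold 3.46 ± 1.51, limma adjusted p = 0.864). Without each library in turn its log2 fold ran from 1.37 to 4.40. Cacna1i, of the same class, was at 41.2 ± 20.4 and 27.5 ± 28.1 RPM. Dlg1, the scaffold SAP97, was at 143 ± 100.1 and 99.3 ± 26.9 RPM (limma adjusted p = 0.913).

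Of 5 partners and targets of KChIP3, 4 were tested, 3 with positive and 1 with negative folds and a median of 1.14, and 0 passed. Over all tested genes, 58.7% of folds were positive, with a median of 0.19. Under quantile normalization the fold of Slc8a3 turned from 0.54 to -0.08. Psen2, a membrane protein that KChIP3 binds, was at 18.98 ± 5.55 RPM in place and 19.9 ± 16.5 RPM in silent libraries. Its log2 fold of 2.20 ± 1.98 was positive although its mean was lower in place; silent replicate 3 had no reads, and without that library the fold was -0.42. Slc8a3, a sodium-calcium exchanger, was at 28.5 ± 16.1 and 39.5 ± 36.9 RPM, so its fold of 0.54 too went against the means; silent replicate 1 was at 0.444 RPM, and without it the fold was -1.13. Fos, an activity-induced transcription factor, was at 27.0 ± 42.7 and 22.2 ± 20.7 RPM, and Pdyn, the prodynorphin gene whose regulatory element DREAM is named for, had no reads.

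The libraries differed in ways that bear on these comparisons. Recovered depth ran from 13.6 to 21.7 (in units of 1000000 reads) and genes detected from 14176 to 20990. The CA1 pyramidal markers, 7 of 7 present, summed to 427 to 975 RPM in place and 729 to 934 RPM in silent libraries, lowest in place replicate 3. Their log2 folds were negative in 6 of 7, and those of the CA3 pyramidal markers positive in 5 of 5 tested, under TMM and the other 4 scalings, with 0 past the threshold in TMM-scaled values. The CA3 markers summed to 30.8 to 132 RPM in place and 28.5 to 73.9 RPM in silent libraries, with Iyd at 0 in all. Of the oligodendrocyte markers 10 of 11 were tested, all 10 with positive folds under TMM and the other 4 scalings, and 0 past the threshold. Over all tested genes, 58.7% had positive folds under TMM. The oligodendrocyte markers summed to 1460, 1995, 3299, 302 and 202 RPM in place replicates 1 to 5, with Ermn at 0 in all libraries. In silent libraries they summed to 122 to 560 RPM, a range that held place replicates 4 and 5. Place replicate 3 had the highest sum of oligodendrocyte markers and of astrocyte markers (2370 RPM, against at most 566 RPM elsewhere). It had the lowest Kcnd3 and, among place libraries, the lowest Kcnip4 and Dpp6. Its Kcnd2, at 296 RPM, was below only place replicate 1 among place libraries. Its Kcnip2, at 185 RPM, was above only place replicate 1 among all 9 libraries. Its Kcnip3, at 36.7 RPM, was above only place replicate 5 among place libraries. Silent replicate 4, with the lowest oligodendrocyte sum (122 RPM), had Kcnd3 at 0.501 RPM. In bulk RNA, fewer cells of a type and less RNA per cell cannot be told apart. Y-linked genes summed to 756 to 1369 RPM in all 4 silent libraries and 1060 RPM in place replicate 1, and to at most 0.269 RPM in the other 4 place libraries, so that in these libraries group and presence of Y-linked RNA largely coincide. Libraries with and without this RNA cannot all come from the same animal. Place replicate 1, which held Y-linked RNA, lay within the silent range for Kcnd2, Kcnd3, Kcnip1 (no reads), Kcnip3 and Dpp6. It lay below that range for Kcnip2 and above it for Kcnip4 and Dpp10. Its Dpp10 was at 16.2 RPM, against at most 0.063 RPM in silent libraries. The part of these measures in the members' values was not tested.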

How the data were processed

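Nuclear RNA was sequenced in 9 libraries, 5 place and 4 silent, grouped by their titles. The authors deposited 1 table of normalized read signal with 31052 gene columns and 3 decimals. Per the submitters' processing notes, STAR, HTSeq and the GRCm39 build were used, with no version; the sources used here do not give the annotation, strand setting or normalization.

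Of 8894 genes above 0 throughout, 8892 held whole multiples, within 0.05, of 1 number per gene. In 8875 of them that number matched, within 0.01 on the log2 scale, the one given by a TMM factor computed per gene, or a whole multiple of it. Scaling had thus been by gene and not by library. Dividing by that number, with any such multiple taken out, gave whole reads, from which depth (13.6 to 21.7 in units of 1000000 reads) and RPM were computed. For the test, libraries were scaled by TMM across libraries (30% and 5% trims). The test kept genes that reached a scaled value of 10 in 4 or more libraries (15219, of which 41.9% lacked reads in some library), and used limma 3.58.1 (R 4.3.3) with a trend, a pseudocount of 1, no covariate and Benjamini-Hochberg adjustment at 0.05. A fold understates the change of low genes, and a library near 0 can make it larger than the ratio of means.

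Members and gene lists were chosen with earlier results of these data known. Named genes are all 8 members, the 4 tested genes with the smallest p of each list, and the 3 genes with the highest r with Kcnd2. Kcne2, Kcne3, Kcne4, Pdyn, Gad2, Adarb2, Gad1, Sst, Reln, Vip, Iyd and Ermn are named outside that rule, after their values were seen. Kcne1 and Kcne5 were not analysed here, and some genes that the rule names are not reported here. Lengths come from a GENCODE annotation of GRCm38, another build than the files', so no other coordinates of genes are printed. Alternatives covered scaling, pseudocount, filter, voom on recovered reads, covariates, array weights and leaving out each library.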

Additional observations from a re-analysis of the deposited data

Results flagged for a closer look

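In 5 of 52 groups of libraries examined, 3 of them groups of a member, the highest library stood apart from the rest of its group by more than Dixon's 95% critical value for the ratio of gap to range. Chance flags about 1 in 20 groups where values are normally distributed. That share does not apply to Kcnip1 and Rcvrn, where the other libraries of the group had 0 reads or at most 1 and the ratio is at or near 1 by construction. Kcnip1 in place replicate 5, at 15.1 RPM, stood apart from the other 4 place libraries, which had no reads. In silent replicate 3, Kcnip1 was at 21.4 RPM and the next silent library at 0.0739 RPM. Dpp10 in place replicate 5 was at 73.3 RPM and the next place library at 16.2 RPM. Rcvrn in silent replicate 2 was at 4.97 RPM, with no reads in the other silent libraries. Fos in place replicate 4 was at 102 RPM, with the next place library at 19.0 RPM.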

How the results depend on the processing

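Under the 21 alternatives run, 0 of 126 log2 folds of the tested members passed the threshold (limma adjusted p from 0.569 to 0.999), 116 had the same sign as the main value and 10 the opposite one. The number of all genes called went from 0 to 4 with voom, to 220 with the mean level of the Y-linked genes as a covariate and to 1 without place replicate 1, and was 0 otherwise, so its range over leaving out each library was 0 to 1. The fit with Y-linked level tells group from that level mainly by place replicate 1, so its 220 calls and its folds rest largely on that library. The sign turned under quantile normalization for Kcnd2 (0.028), Kcnd3 (-0.041) and Slc8a3 (-0.078). It turned for Fos with a pseudocount of 0.1 (0.10) and with array weights (0.13). With genes detected as a covariate it turned for Kcnd2 (0.35), Kcnd3 (-1.92), Kcnip3 (-0.048), Ncs1 (-0.20), Hpca (-0.35) and Slc8a3 (-1.30), and with Y-linked level for Kcnd2 (0.32), Dpp8 (0.20), Ncald (-0.010), Dlg1 (-0.78) and Fos (2.48). The cause was not tested. Leaving out each library in turn, the log2 fold ran from -0.26 to 0.18 for Kcnd2, -0.47 to 1.96 for Kcnd3, -0.41 to -0.16 for Kcnip2, 0.012 to 0.66 for Kcnip3, 0.22 to 0.91 for Kcnip4, 0.23 to 0.52 for Dpp6, -0.15 to 2.26 for Kcnd1, -0.42 to 0.18 for Dpp8, -0.11 to 0.62 for Ncs1, -0.18 to 0.28 for Hpca, -0.030 to 0.59 for Dlg1, -0.42 to 3.25 for Psen2, -1.13 to 1.40 for Slc8a3 and -2.93 to 2.06 for Fos. Kcna4, Kcnab1, Kcnab3, Dpp9, Rcvrn, Ncald, Cacna1h and Cacna1i kept their sign wherever they were tested with a library left out. With no filter, Kcnip1 and Dpp10 could be tested and had limma adjusted p of 0.872 and 0.763. Count models on the recovered reads (edgeR and DESeq2) had been listed and were not run. No paired analysis was possible because no label links a place library to a silent one, and replicate numbers were only given here in accession order. Depth limits Kcnip1 and Dpp10: by the limit of 3 reads, absence below 0.137 to 0.222 RPM cannot be shown.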
